A study of Homo sapiens with 6 samples.

Results

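The centrosome is the main microtubule-organising centre of animal cells: a pair of centrioles inside a shell of pericentriolar material, surrounded by small granules called centriolar satellites. A new centriole grows on each old one once per cell cycle, from a cartwheel built by SASS6 and STIL under the kinase PLK4. The shell, with PCNT and CDK5RAP2 as scaffolds, recruits the gamma-tubulin ring complex that nucleates microtubules, and many of the same proteins serve at the base of the primary cilium, which lymphocytes are generally held not to form. Leukemia cells divide quickly and so have to duplicate and separate these structures in every cycle.

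The centrosome protein genes described here are the protein-coding genes whose GENCODE symbol is CEP followed by a number, together with PCNT, CNTROB, NIN, NINL, CNTRL, SASS6, STIL, OFD1, PCM1, CDK5RAP2 and AKAP9. The rule used names alone and no measured value, but the genes were chosen with earlier results of these data known. It found 43 genes among 58096 listed, 32 with a CEP number and 11 others. Of these, 42 had enough reads to be tested. CEP126, a satellite protein gene, had 0 reads in all 6 libraries, which at this depth allows a level of up to 0.119 to 0.188 CPM, depending on the library (the floor set by 3 reads at unnormalised library sizes, counting error only). CPM are read counts scaled so that a library sums to 1000000.

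Total RNA was sequenced from ALL-SIL, an established human T-cell acute lymphoblastic leukemia line with a rearranged TLX1 gene. One group of 3 libraries came from cells given JQ1, an inhibitor that takes the place of acetylated histones in the bromodomains of BET proteins, at 1 µM for 24 h. The other group of 3 libraries is titled DMSO, the solvent control; the treatment text of these samples repeats the JQ1 dose, so their groups rest on the titles. All 6 libraries are from 1 cell line, with no other genotype or agent named, and nothing says whether replicates were separate cultures, so the p-values reflect no more than how these libraries varied, and that variation could be technical.

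Gene counts per library ran from 15925885 to 25293884. MYC, a gene known to fall under BET inhibition, was lower in JQ1 (log2 change -1.41, SE 0.10, edgeR adjusted p = 1.4e-05) and HEXIM1, a common readout that rises, was higher (1.59, SE 0.21, adjusted p = 0.00066). The 10 T lineage markers, TLX1 counted among them, were all detected in DMSO, with a summed level of 1892 to 2236 CPM there and 1114 to 1471 in JQ1. Of these, 8 were lower and TLX1 was higher. CD2 averaged 1.39 CPM in DMSO. In JQ1 replicates 1, 2 and 3 it had 0.121, 0.047 and 0 CPM, about at or under the floor of 3 reads. Of 8 myeloid markers 5 had 0 reads everywhere, MPO and CD33 among them, and the list summed to at most 0.141; of 9 erythroid and platelet markers 7 had 0 reads, HBB and PF4 among them, and the sum was at most 0.387. The 7 B lineage markers summed to 11.5 to 24.5 in DMSO and 1.61 to 6.34 in JQ1, of which CD79B was called lower, with MS4A1 at 0. The 6 stroma and epithelium markers summed to 65.4 to 91.6 and 4.64 to 9.95, nearly all of it PECAM1, with COL1A2 and VWF at 0. The part of these marker changes in the centrosome values was not tested.

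As a set, the centrosome protein genes shifted modestly upward under JQ1. Levels are in CPM at edgeR's TMM-normalised library sizes, a log2 change is JQ1 over DMSO from edgeR's quasi-likelihood fit, and a gene is called at an adjusted p under 0.05, adjusted by Benjamini-Hochberg over all 13975 tested genes. Of the 42 tested genes, 13 were called higher (31%) and 5 lower (11.9%), and 24 were not called. Over all tested genes 15.9% were called higher and 20.6% lower, and over the 10667 tested protein-coding genes 17% and 24.3%. The members' share of higher calls was thus above this background and their share of lower calls below it. Without adjustment, 19 of the 42 had p under 0.05 in the higher direction and 7 in the lower, where 21.4% and 24.7% of all tested genes did.

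The median log2 change of the 42 genes was 0.21, against 0.00 over all tested genes and -0.03 over protein-coding genes. By replicate number the medians were 0.12, 0.18 and 0.30, and 30, 32 and 32 of the genes lay above 0. The changes were small: the median size of the log2 change was 0.30, close to the 0.32 of all tested genes, and 15 of the 18 called genes changed by less than 1.5-fold. CEP41 alone, 2.38% of the 42, changed more than 2-fold, compared with 11.3% of all tested genes. In sum, the members took 0.452%, 0.453% and 0.448% of all gene counts in the DMSO libraries, in the order of their numbers, and 0.486%, 0.477% and 0.483% in those of JQ1. The groups did not overlap: the means were 0.451% ± 0.00313 (SD, n = 3) and 0.482% ± 0.00470 (SD, n = 3), with an exact 2-sided permutation p = 0.1, the smallest that 3 against 3 allows. In bulk RNA, fewer cells of a type and less RNA per cell cannot be told apart.

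Libraries with the same replicate number deviated together from their group means, so the number was also fitted as a block. With the block 25 genes were called higher (59.5%) and 7 lower (16.7%), all 18 earlier calls among them, where the background was 27.3% and 29.6%. In 21 genes every JQ1 library lay above every DMSO library (50%, background 22.9%), in 5 every one lay below (11.9%, background 26%), and in 16 the groups overlapped. Of the called genes 72.2% were higher. With scaling by library size alone the split was 11 higher and 7 lower, or 61.1%. Over all tested genes the counts were 2227 higher and 2883 lower in the main fit, and 1697 and 3245 with library size alone. The split thus moved toward lower calls over all genes too. The count of lower genes depended on single libraries: it was 2 without JQ1 replicate 1 and 3 without JQ1 replicate 3, DMSO replicate 1 or DMSO replicate 2. Lower calls over all tested genes also fell in these fits, from 2883 to 2436, 2455, 2493 and 2444, in the same order.

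**Figure D1:**
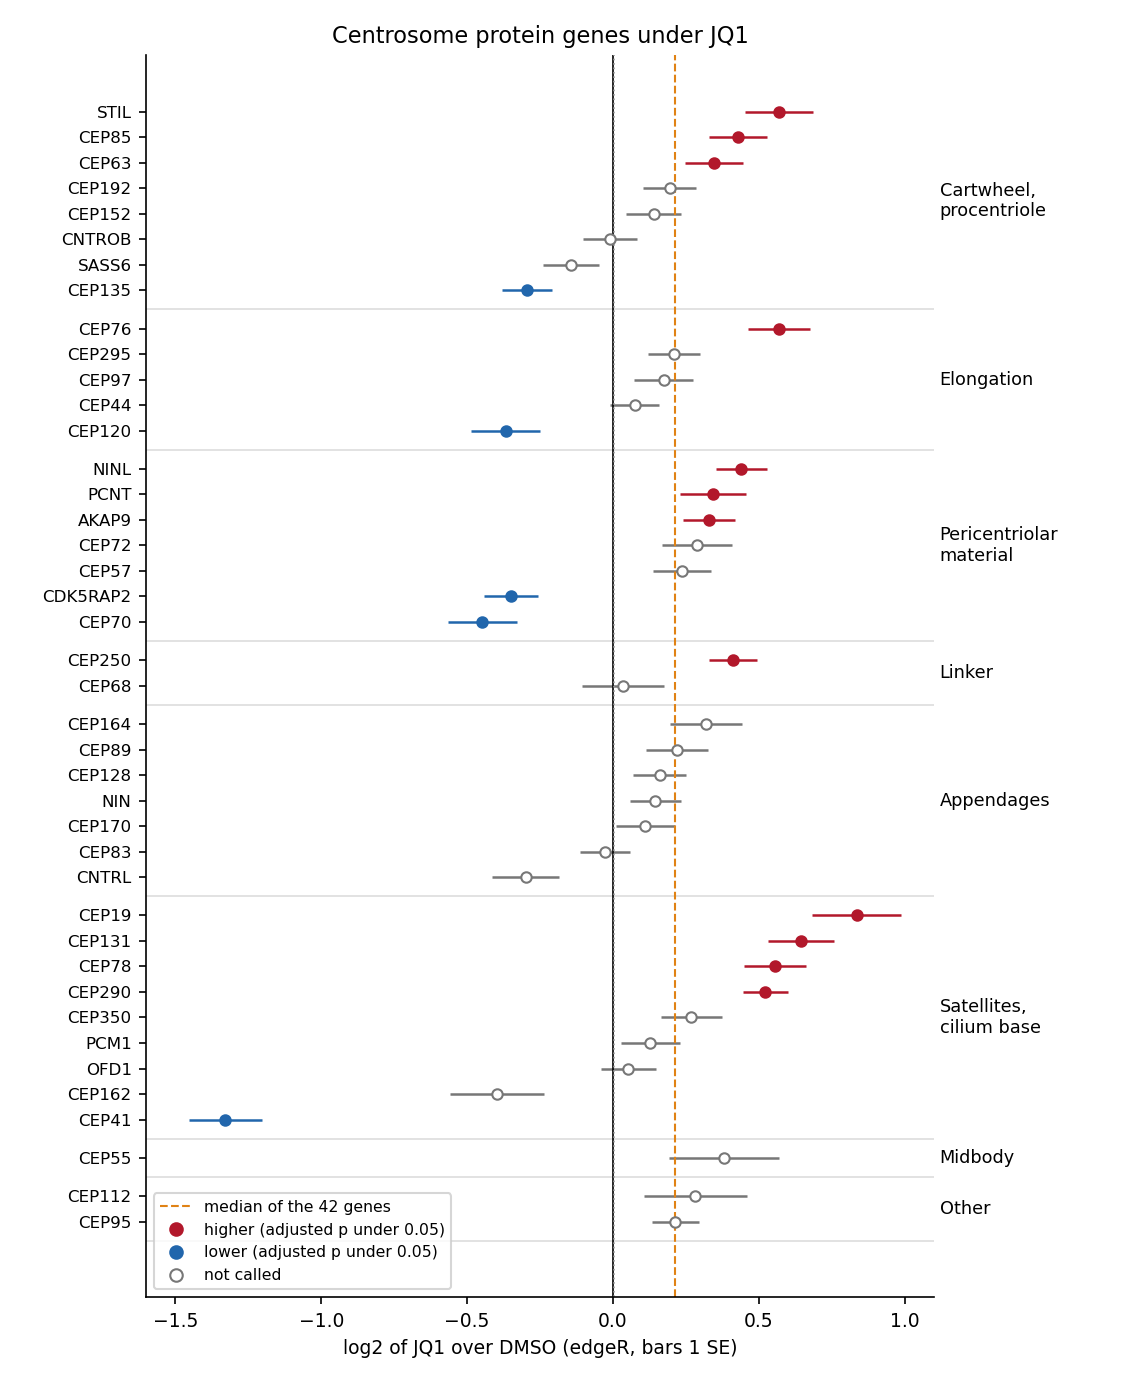
Log2 change of JQ1 over DMSO (horizontal axis) for 41 of the 42 tested centrosome protein genes, grouped by the role of the protein; points are edgeR estimates, bars 1 SE, filled where called, and the dashed line is the median of all 42, 0.21. Most points lie to the right of 0, the 12 drawn as higher and the 5 as lower are spread over the roles, no appendage gene is called, and CEP41 stands far to the left.

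For each role described next, the background is 15.9% higher and 20.6% lower over all tested genes, and 27.3% and 29.6% with the replicate block. Each role holds few genes, and none was tested as a set. Genes for the cartwheel and the early procentriole held 3 of the higher calls among 8 tested. STIL, which loads SASS6 onto the parent centriole and is known in T-cell leukemia as the upstream partner of the STIL-TAL1 deletion, stood at 132, 118 and 94.9 CPM in DMSO replicates 1, 2 and 3 and at 178, 170 and 164 CPM in JQ1. All JQ1 libraries were above all DMSO libraries, and its log2 change was 0.57 (SE 0.12, adjusted p = 0.0038). CEP85, which binds STIL, changed by 0.43 (SE 0.10, adjusted p = 0.0071), and CEP63, the partner of CEP152, by 0.35 (SE 0.10, adjusted p = 0.020). The CEP63 call was lost with library-size scaling (0.28, adjusted p = 0.066), without JQ1 replicate 3 (0.28, adjusted p = 0.078), without DMSO replicate 2 (0.30, adjusted p = 0.072) and without both libraries of number 2 (0.35, adjusted p = 0.060).

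SASS6, which forms the hub of the cartwheel, went the other way from STIL in value: 53.3, 46.7 and 51.6 CPM in DMSO and 48.1, 41.6 and 47.6 CPM in JQ1. The groups overlapped, and the log2 change of -0.14 (SE 0.10, adjusted p = 0.27) was not called. CEP135, which joins the cartwheel to the microtubule wall, was the only gene of this role called lower, with 50.4, 56.0 and 54.6 CPM in DMSO and 44.1, 42.3 and 44.9 CPM in JQ1. Its groups did not overlap, and its log2 change was -0.29 (SE 0.09, adjusted p = 0.021). The call was lost without JQ1 replicate 1 (-0.30, adjusted p = 0.058), JQ1 replicate 2 (-0.27, adjusted p = 0.065), DMSO replicate 2 (-0.26, adjusted p = 0.082) or DMSO replicate 3 (-0.28, adjusted p = 0.056), and without both libraries of number 2 (-0.24, adjusted p = 0.14).

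The scaffolds that recruit PLK4 moved little. CEP192 had 201, 218 and 190 CPM in DMSO and 220, 238 and 239 CPM in JQ1, all JQ1 libraries above all DMSO libraries but only narrowly. Its log2 change of 0.19 (SE 0.09, adjusted p = 0.12) was called only with the replicate block (adjusted p = 0.0098). CEP152 had 109, 99.2 and 92.3 CPM in DMSO and 118, 102 and 111 CPM in JQ1, with overlapping groups and no call (0.14, SE 0.09, adjusted p = 0.28). CNTROB, centrobin of the daughter centriole, was nearly level between the groups, at a log2 change of -0.01 (SE 0.09).

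The STIL start region is printed because STIL had the largest change of this role. It lies at chr1:47314098-47314397 on the minus strand (GRCh38), 250 bases before to 50 after the RefSeq start of a gene that spans 47250139 to 47314147. Capitals mark ATTGG (the CCAAT box, either strand) and an E2F-type site, TTTGCCGC.
STIL: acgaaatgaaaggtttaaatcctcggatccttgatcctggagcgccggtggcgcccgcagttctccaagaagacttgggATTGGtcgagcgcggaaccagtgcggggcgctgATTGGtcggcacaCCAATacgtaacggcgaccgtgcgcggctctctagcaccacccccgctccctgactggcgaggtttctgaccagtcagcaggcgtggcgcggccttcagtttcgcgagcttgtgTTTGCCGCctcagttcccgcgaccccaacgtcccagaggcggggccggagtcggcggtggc
The window held 3 CCAAT boxes and the E2F-type site close to the start.

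Of the 6 tested genes for centriole elongation and length control, 2 were called higher and 1 lower, and with the replicate block 4 and 1. CEP76, which restrains extra rounds of duplication, rose from 34.9, 33.0 and 27.4 CPM in DMSO to 47.7, 47.8 and 45.8 CPM in JQ1. The groups were clearly apart, with a log2 change of 0.57 (SE 0.11, adjusted p = 0.0022).

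CEP120, which promotes elongation together with CENPJ, was the lower one, with 52.8, 52.5 and 44.6 CPM in DMSO and 38.9, 43.6 and 33.3 CPM in JQ1. The highest JQ1 library lay just under the lowest DMSO library, and the log2 change was -0.37 (SE 0.12, adjusted p = 0.031). That call was lost without JQ1 replicate 1 (-0.37, adjusted p = 0.072), JQ1 replicate 3 (-0.27, adjusted p = 0.11), DMSO replicate 1 (-0.32, adjusted p = 0.10) or DMSO replicate 2 (-0.33, adjusted p = 0.097), and without both libraries of number 2 (-0.43, adjusted p = 0.053). CEP97, which caps the centriole with CP110, and CEP295, needed for the change from centriole to centrosome, were called higher only with the block (0.17, adjusted p = 0.038, and 0.21, adjusted p = 0.0050). CEP44, another factor of that change, was not called in either fit (0.07, SE 0.08).

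Pericentriolar material and microtubule nucleation genes changed in both directions, 3 higher and 2 lower of 7, and 5 and 2 with the replicate block. PCNT, pericentrin, had 131, 111 and 131 CPM in DMSO and 171, 135 and 166 CPM in JQ1; replicate 2 was the lowest of both groups, and the groups were just apart. Its log2 change of 0.34 (SE 0.11, adjusted p = 0.036) lost the call with library-size scaling (0.28, adjusted p = 0.10) and without JQ1 replicate 1 (0.28, adjusted p = 0.12), JQ1 replicate 3 (0.30, adjusted p = 0.11), DMSO replicate 1 (0.38, adjusted p = 0.052) or DMSO replicate 2 (0.27, adjusted p = 0.12). AKAP9, a large scaffold that anchors kinases and gamma-tubulin at the centrosome and Golgi, had 194, 221 and 205 CPM in DMSO and 262, 261 and 256 CPM in JQ1. All its JQ1 values were above all DMSO values (0.33, SE 0.09, adjusted p = 0.015), and the call was lost only without DMSO replicate 1 (0.29, adjusted p = 0.053). NINL, a ninein-like protein that helps nucleate microtubules, rose by 0.44 (SE 0.09, adjusted p = 0.0032).

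CDK5RAP2, which tethers and activates gamma-tubulin rings, fell from 122, 118 and 106 CPM in DMSO to 88.7, 98.1 and 84.3 CPM in JQ1. No JQ1 library reached the DMSO range, and the log2 change was -0.35 (SE 0.09, adjusted p = 0.014). The call was lost without JQ1 replicate 1 (-0.33, adjusted p = 0.051), JQ1 replicate 3 (-0.30, adjusted p = 0.063) or DMSO replicate 1 (-0.30, adjusted p = 0.056). CEP70, a gamma-tubulin-interacting protein, had 337, 282 and 322 CPM in DMSO and 241, 196 and 254 CPM in JQ1 (-0.45, SE 0.12, adjusted p = 0.014), replicate 2 being the lowest of each group and the groups not overlapping. Per kilobase of exon it was the most abundant member in DMSO, at a mean of 71.0 CPM per kb, ahead of PCM1 at 47.1. In JQ1 CEP70 and PCM1 were near level, at means of 52.1 and 51.5. CEP57 and CEP72, which help place pericentriolar proteins, were called higher with the block (0.24, adjusted p = 0.0020, and 0.29, adjusted p = 0.011), and CEP57 also without DMSO replicate 1 (0.32, adjusted p = 0.043).

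Of the pair of linker genes, CEP250 was called and CEP68 was not. CEP250, or C-Nap1, roots the fibres that hold both centrioles together, and it had 93.4, 94.5 and 101 CPM in DMSO and 135, 123 and 127 CPM in JQ1. All JQ1 libraries were above the DMSO range (0.41, SE 0.08, adjusted p = 0.0034). CEP68, a part of the same fibres, had overlapping groups and a log2 change of 0.04 (SE 0.14, adjusted p = 0.87).

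No gene for the distal and subdistal appendages of the mother centriole was called, of 7 tested; without adjustment 1 had p under 0.05 in each direction. Of the distal appendage genes, CEP164, which docks the kinase TTBK2, changed by 0.32 (SE 0.12, adjusted p = 0.067), CEP89 by 0.22 (SE 0.11, adjusted p = 0.13) and CEP83, the base of the appendage, by -0.03 (SE 0.09, adjusted p = 0.84). Among subdistal ones, NIN (ninein), CEP128 and CEP170 had log2 changes of 0.15, 0.16 and 0.11, and CNTRL (centriolin) of -0.30 (SE 0.12, adjusted p = 0.065). The replicate block called CEP164 (adjusted p = 0.00043), CEP89 (0.015) and CEP128 (0.038) higher and CNTRL (0.00017) lower. CNTRL was also called with library-size scaling (-0.36, adjusted p = 0.023), with no filter on low counts (-0.32, adjusted p = 0.015), without JQ1 replicate 2 (-0.40, adjusted p = 0.027) and without DMSO replicate 3 (-0.38, adjusted p = 0.033), and CEP164 with no filter (0.30, adjusted p = 0.042) and without JQ1 replicate 3 (0.43, adjusted p = 0.019).

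Satellite and cilium-base genes held both extremes, with 4 called higher and 1 lower of 9 tested, and 5 and 2 with the replicate block. CEP41, needed for the glutamylation of ciliary tubulin and mutated in Joubert syndrome, had the largest change of the 42 genes. It stood at 30.9, 37.3 and 37.1 CPM in DMSO and at 12.2, 15 and 14.8 CPM in JQ1. Every JQ1 library lay far below every DMSO library, a 2.51-fold lower level (log2 change -1.33, SE 0.13, adjusted p = 4.9e-05), and the changes by replicate number were close to each other at -1.30, -1.28 and -1.30.

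CEP19, which brings the small GTPase RABL2 to the cilium base, had the largest rise, from a low level of 11.8, 9.86 and 10.3 CPM in DMSO to 15.4, 21.9 and 19.7 CPM in JQ1. JQ1 replicate 1 was the lowest of its group and still above all DMSO libraries (0.84, SE 0.15, adjusted p = 0.0020). CEP131, or AZI1, a satellite protein, rose from 27.6, 31.5 and 34.7 CPM to 47.3, 54.3 and 45.2 CPM with no overlap (0.65, SE 0.11, adjusted p = 0.0016). CEP78, a centriole-wall protein mutated in cone-rod dystrophy with hearing loss, had 159, 146 and 123 CPM in DMSO and 221, 203 and 204 CPM in JQ1 (0.56, SE 0.11, adjusted p = 0.0026), again with all JQ1 libraries above.

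CEP290, which bridges membrane and microtubules in the transition zone of the cilium, was the steadiest riser within groups. It had 62.0, 64.5 and 62.8 CPM in DMSO and 90.7, 91.0 and 90.2 CPM in JQ1. The spread inside each group was a small part of the gap between them (0.52, SE 0.08, adjusted p = 0.00056). CEP350, an anchor of CEP19 at the centriole, was called higher with the block (0.27, adjusted p = 0.00057) and with DESeq2 (0.28, adjusted p = 0.039).

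PCM1, the scaffold of the satellites and the most abundant member by CPM, had 692, 697 and 651 CPM in DMSO and 705, 771 and 754 CPM in JQ1. All JQ1 libraries lay above the DMSO range, by little in replicate 1, and the change of 0.13 (SE 0.10, adjusted p = 0.35) was called in neither fit. OFD1, which PCM1 carries on satellites, was near level (0.05, SE 0.09). CEP162, which marks the end of the axoneme for transition-zone assembly, was called lower with the block (-0.40, adjusted p = 0.0022), with library-size scaling (-0.46, adjusted p = 0.046), with no filter on low counts (-0.41, adjusted p = 0.049) and without JQ1 replicate 2 (-0.55, adjusted p = 0.031), and otherwise not (-0.40, SE 0.16, adjusted p = 0.079).

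**Figure D2:**
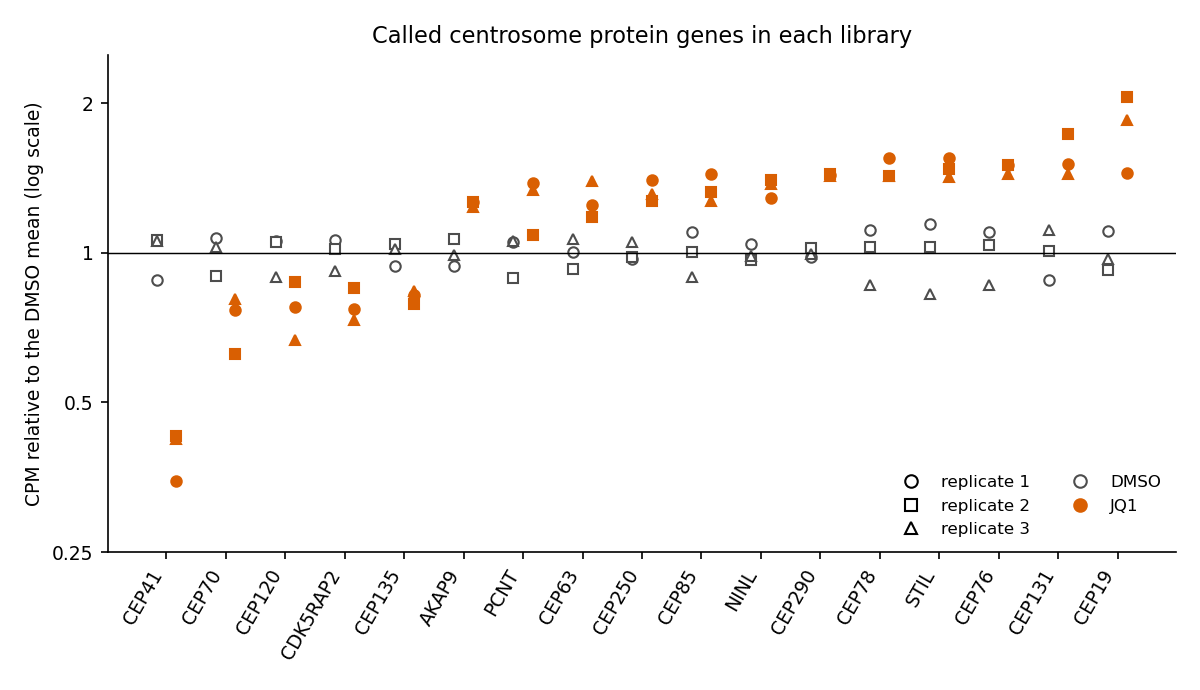
CPM of 17 of the 18 called centrosome protein genes in each library, divided by that gene's mean over the 3 DMSO libraries (vertical axis, log scale); open symbols are DMSO, filled symbols JQ1, and the shape gives the replicate number. The groups of each gene do not overlap; in CEP41 the JQ1 points are near 0.4, and most other genes lie within 0.6 to 1.6.

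The start regions of the genes at both ends of this role are shown for comparison, from RefSeq (GRCh38.p14), each 250 bases before to 50 after the start. CEP41 spans 130393771 to 130442433 on the minus strand of chromosome 7, and its RefSeq start lies inside the GENCODE gene; the window is chr7:130440967-130441266. CEP19 spans 196706277 to 196712293 on the minus strand of chromosome 3, with the window chr3:196712201-196712500, and CEP290 spans 88049014 to 88142216 on the minus strand of chromosome 12, with the window chr12:88142039-88142338. Capitals mark CCAAT boxes in CEP41 and TTTGAA, the cell cycle homology region or CHR of many mitotic promoters, in CEP290.
CEP41: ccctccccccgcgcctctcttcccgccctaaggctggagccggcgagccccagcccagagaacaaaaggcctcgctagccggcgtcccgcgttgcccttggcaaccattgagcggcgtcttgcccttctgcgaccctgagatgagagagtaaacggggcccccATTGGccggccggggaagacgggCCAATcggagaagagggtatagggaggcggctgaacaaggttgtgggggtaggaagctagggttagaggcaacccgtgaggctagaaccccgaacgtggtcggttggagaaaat
CEP19: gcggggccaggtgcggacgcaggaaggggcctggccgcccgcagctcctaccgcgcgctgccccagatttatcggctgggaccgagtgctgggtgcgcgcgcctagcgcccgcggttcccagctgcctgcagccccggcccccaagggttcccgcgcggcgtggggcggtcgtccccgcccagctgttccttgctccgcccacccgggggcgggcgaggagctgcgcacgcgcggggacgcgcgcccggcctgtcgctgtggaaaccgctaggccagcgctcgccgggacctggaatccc
CEP290: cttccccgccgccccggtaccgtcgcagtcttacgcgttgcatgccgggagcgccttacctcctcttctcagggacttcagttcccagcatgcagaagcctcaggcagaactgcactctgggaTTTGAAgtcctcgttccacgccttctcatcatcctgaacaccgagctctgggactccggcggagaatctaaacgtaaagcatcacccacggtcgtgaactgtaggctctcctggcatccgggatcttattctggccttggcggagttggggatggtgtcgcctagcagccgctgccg
The CEP41 window held 2 CCAAT boxes and the CEP290 window 1 CHR. The GC box GGGCGG (not in capitals, either strand) occurred 5 times in the CEP19 window, where no other searched motif did, and 1 time each in those of CEP41 and CEP290.

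CEP55, which recruits the membrane-cutting machinery that separates daughter cells, is the one midbody gene of the set. It had 65.2, 81.9 and 48.6 CPM in DMSO and 79.4, 101 and 74.4 CPM in JQ1. The groups overlapped, since DMSO replicate 2 was above JQ1 replicates 1 and 3, but JQ1 was higher within each replicate number. The log2 change of 0.38 (SE 0.19) was not called (adjusted p = 0.15), and with the replicate block it was (0.40, SE 0.07, adjusted p = 1e-05). It was also called with no filter on low counts (0.37, adjusted p = 0.0047) and without DMSO replicate 2 (0.59, adjusted p = 0.023). The other 2 genes, whose proteins are less well placed, are CEP95 and CEP112, both called higher with the block (0.21, adjusted p = 0.0035, and 0.28, adjusted p = 0.043). CEP95 was also called with a filter of at least 1 CPM in at least 3 libraries (0.22, adjusted p = 0.042). CEP112 was the least abundant tested member in DMSO (in JQ1 CEP162 was lower still), with 8.62, 10.3 and 7.77 CPM in DMSO and 9.38, 13.2 and 9.93 CPM in JQ1 and overlapping groups; an annotated gene on its strand shares exon sequence with it, so its counts are uncertain. SASS6 overlaps a noncoding gene on its own strand in the same way, and CEP170 has an annotated pseudogene copy, CEP170P1.

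The CEP55 start region, at chr10:93496362-93496661 on the plus strand, is shown because CHR and CCAAT elements (capitals), a pair known from many mitotic promoters, stand together in it. The pair is not particular to CEP55: it also occurred in the windows of CEP57, CEP89, CEP152, CEP192 and CEP295. Capitals also mark an ETS-type CCGGAAG, and 5 GC boxes are not in capitals.
CEP55: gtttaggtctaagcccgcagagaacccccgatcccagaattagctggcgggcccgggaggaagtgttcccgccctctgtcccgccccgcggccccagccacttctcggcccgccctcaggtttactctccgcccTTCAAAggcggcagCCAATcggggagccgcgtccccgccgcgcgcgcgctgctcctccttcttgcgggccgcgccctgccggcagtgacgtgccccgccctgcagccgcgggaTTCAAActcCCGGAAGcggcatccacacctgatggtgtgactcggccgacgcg
A match of letters is a description and no evidence that a factor binds. The GENCODE gene begins at 93496632, a little downstream of the RefSeq start.

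The summed levels of cell cycle genes differed more between replicate numbers than between the groups. Summed over 25 mitosis and G2/M genes outside the rule, they were 5364, 7714 and 3926 CPM in DMSO replicates 1, 2 and 3 and 5368, 7864 and 5171 CPM in JQ1. Over 25 G1/S and replication genes the sums were 7286, 4812 and 7194 CPM in DMSO and 7849, 5884 and 8338 CPM in JQ1. Replicate 2 of both groups was thus highest for mitosis and lowest for G1/S, and DMSO replicate 3 was lowest for mitosis, as it was for CEP55 and STIL. Unlike the mitosis sum, STIL was highest in replicate 1 of both groups (132 CPM in DMSO and 178 in JQ1).

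In the mitosis list 1 gene was called higher and 0 lower (ANLN, anillin of the cleavage furrow, 0.48, SE 0.16, adjusted p = 0.044), and without adjustment 4 had p under 0.05 in the higher direction and 0 in the lower. CDK1, KIF11 and MAD2L1 had log2 changes of 0.55, 0.33 and 0.18. The median was 0.18, but without single libraries it ran from -0.10 (JQ1 replicate 2) through -0.05 (DMSO replicate 3) and 0.08 (DMSO replicate 1) to 0.47 (DMSO replicate 2). ANLN was the sole called gene. The count of higher genes was 0 without replicate 1 of either group, JQ1 replicate 2 or DMSO replicate 3, 2 without DMSO replicate 2 and 4 without both libraries of number 2. Without DMSO replicate 3, 1 gene was called lower. In the G1/S list 3 were called higher and 0 lower, among them CLSPN, a checkpoint adaptor (0.91, SE 0.17, adjusted p = 0.0025), and MCM6, of the replicative helicase (0.43, SE 0.13, adjusted p = 0.031). The other MCM subunits of the helicase did not share one direction. MCM2 and MCM7 (-0.27 and -0.22) were called lower and MCM4 (0.21) higher, each only with the block. MCM3 and MCM5 were called in neither fit (0.02 and -0.09). RRM2 had 0.61 (adjusted p = 0.059). Its median of 0.21 kept its sign without any single library (0.05 without DMSO replicate 2 to 0.39 without JQ1 replicate 2), while the count of higher genes ran from 1 without JQ1 replicate 3 to 7 without DMSO replicate 1. With the replicate block 13 mitosis genes were called higher and 2 lower, and 16 and 2 G1/S genes. Without both libraries of number 2, 12 centrosome genes were called higher and 3 lower, with a median of 0.22. Over all 13986 genes tested in that fit, 1423 were called higher and 2206 lower. The part of these cell cycle levels in the changes of the centrosome genes was not tested.

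**Figure D3:**
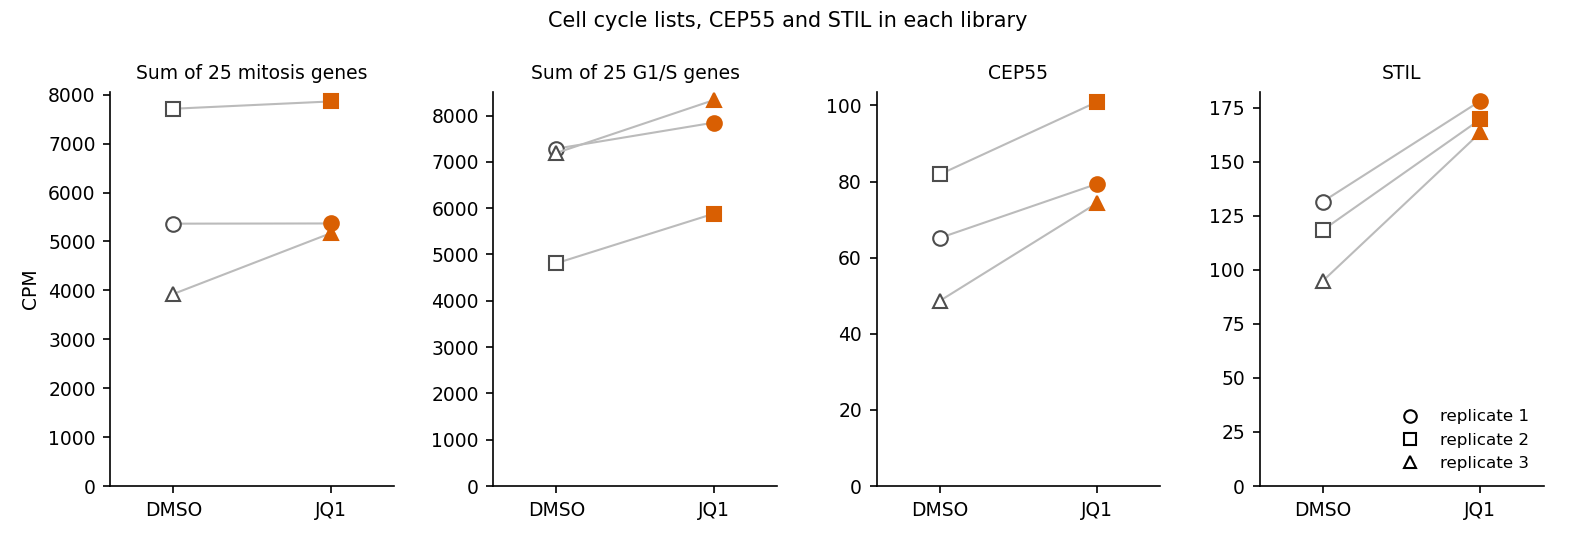
Summed CPM of the 25 mitosis genes and the 25 G1/S genes, and CPM of CEP55 and STIL, in each library; open symbols are DMSO, filled JQ1, shapes give the replicate number and lines join libraries of the same number. Both CEP55 and STIL rise in all 3 pairs. CEP55 follows the order of the mitosis sum, with replicate 2 highest in both groups, while STIL is highest in replicate 1 of both and has little spread among the JQ1 libraries.

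Among 25 genes for centriole duplication outside the rule, 7 were called higher and 3 lower, and 14 and 4 with the block, with a median log2 change of 0.18. For this list, the next ones and the cell cycle lists the background is again 15.9% higher and 20.6% lower over all tested genes, and 27.3% and 29.6% with the block. MCPH1, microcephalin, which restrains chromosome condensation before mitosis, fell from 99.0 to 46.5 CPM on average (-1.09, SE 0.11, adjusted p = 6.9e-05). PPP1R35, a factor for centriole elongation, fell by 0.58 (SE 0.11, adjusted p = 0.0025). CPLANE1, of ciliogenesis, rose by 0.71 (SE 0.10, adjusted p = 0.00050) and SPICE1, a spindle and centriole protein, by 0.53 (SE 0.11, adjusted p = 0.0033). TUBE1, RTTN, CCDC14, WDR62 and TEDC1 were also higher, by 0.31 to 0.65, and POC1B was lower (-0.54).

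Of 25 genes for the gamma-tubulin ring complex, augmin and spindle pole kinases, 6 were called higher and 3 lower, and 11 and 8 with the block, with a median of 0.05 that was 0.00 without JQ1 replicate 2, 0.02 without DMSO replicate 3 and 0.17 without DMSO replicate 2. Augmin subunits went both ways. HAUS3 rose from 53.7 to 106 CPM (0.99, SE 0.09, edgeR adjusted p = 4.2e-05). HAUS4 rose by 0.58 (SE 0.11, adjusted p = 0.0023) and HAUS8 by 0.53 (SE 0.10, adjusted p = 0.0028). HAUS1, HAUS5 and HAUS6 had log2 changes of -0.23, -0.24 and -0.14 and were called lower only with the block. HAUS2 and HAUS7 were called in neither fit (-0.09 and 0.25). The ring-complex partners MZT2A and MZT2B fell by 0.69 and 0.50 (adjusted p = 0.00041 and 0.0018); they are near-identical copies whose reads may be split or lost, so each value is uncertain. Ring-complex subunits themselves went both ways, with TUBGCP4 lower (-0.52) and TUBGCP5 and TUBGCP6 higher (0.47 and 0.50).

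Of 24 tested linker, appendage and satellite genes outside the rule, 6 were called higher and 2 lower, and 8 and 8 with the block. The median was -0.01, so it sat below 0 although more calls were higher, and without single libraries it ran from -0.05 (DMSO replicate 3) to 0.03 (JQ1 replicate 1). TTBK2, the kinase that CEP164 docks, rose by 0.54 (SE 0.08, adjusted p = 0.00061), SDCCAG8 by 0.60 (SE 0.09, adjusted p = 0.00072), ANKRD26, of the distal appendages, by 0.61 (SE 0.10, adjusted p = 0.0014), and MIB1, a ubiquitin ligase of satellites, by 0.56 (SE 0.10, adjusted p = 0.0021). ODF2 and FBF1 were also higher, and KIAA0753 and FOPNL, both satellite proteins, lower (-0.55 and -0.35). The count of lower genes in this list was 1 without DMSO replicate 2 and 0 without both libraries of number 2.

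Features that the rule did not use were also compared. The 42 genes were long, with a median span of 81.6 kb against 31.7 kb over tested protein-coding genes and a median exon length of 8.40 kb against 5.13 kb, and their transcripts had a lower GC content (42.1% against 47.9%). Across the 42 genes the log2 change had a Spearman correlation of 0.35 with transcript GC, -0.24 with gene span, -0.15 with the DMSO level and -0.01 with exon length. Over the 10667 protein-coding genes the same values were -0.13, 0.06, 0.07 and 0.10. These are across genes measured in the same libraries, which are not independent, and are given as description.

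Start regions were searched for 10 short motifs on both strands, a list chosen after the expression values were seen. RefSeq windows were found for 39 of the 43 genes, 51 windows in all because some genes have several, and the same search was run in 35116 windows of the same length. An E2F-type site (TTTGGCGC, TTTCGCGC, TTTCCCGC or TTTGCCGC) occurred in 19.6% of the members' windows and 3.31% of all windows. CHR (TTTGAA or TTCGAA) occurred in 31.4% and 16.4%, the CCAAT box (ATTGG) in 49.0% and 34.6%, the GC box (GGGCGG) in 64.7% and 45.0%, and an ETS-type site (CCGGAAG) in 19.6% and 10.3%. The YY1-type AAGATGGC was in 7.84% and 2.89%, TCTCGCGA in 3.92% and 1.15%, the E-box CACGTG in 7.84% and 7.26%, TATAAA in 5.88% and 11.5%, and the NRF1-type GCATGCGC in 0% and 3.05%. Some of these letters can overlap each other, and the members' windows were richer in GC (median 62.3% against 58.7%). The 35116 windows were not restricted to genes with reads in this line, whereas nearly all members had reads. Percentages are of windows, so a gene with several windows counts more than once. Split by call, the ETS-type site was in the windows of 9 of 23 genes that were not called, 0 of 10 higher genes and 0 of 5 lower genes, a difference seen after the search and not tested. E2F-type sites were in 2 of 10 higher, 0 of 5 lower and 7 of 23 other genes.

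Several members share a start region with a gene on the opposite strand, and this comparison too was chosen after values were seen. Of the 42 tested genes 12 (28.6%) had a protein-coding neighbour that starts within 1000 bases in the opposite direction, against 19.6% of all tested protein-coding genes. Of the 11 neighbours tested, 3 were called higher, 3 lower and 5 not, where 17% and 24.3% of tested protein-coding genes were called higher and lower. The pair had the same sign in 8 of 11 cases, and in 49.5% of 948 such pairs over all genes. Among these 8, CNTROB and TRAPPC1 (-0.01 and -0.05) and OFD1 and TRAPPC2 (0.05 and 0.04) were near 0. PCNT and its neighbour C21orf58 were both called higher (0.34 and 0.64), the only pair of the same sign with both genes called. CEP63 (0.35) and ANAPC13 (-0.43), a subunit of the anaphase-promoting complex, went opposite ways. CEP89 and FAAP24, neither of them called, also had opposite signs (0.22 and -0.34). TRMT13, beside SASS6, was called lower (-0.52), SDCCAG8, beside CEP170, and FAM76B, beside CEP57, higher (0.60 and 0.47). Counts here keep the strand, so reads of such a pair are told apart where the library kept strand.

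**Figure D4:**
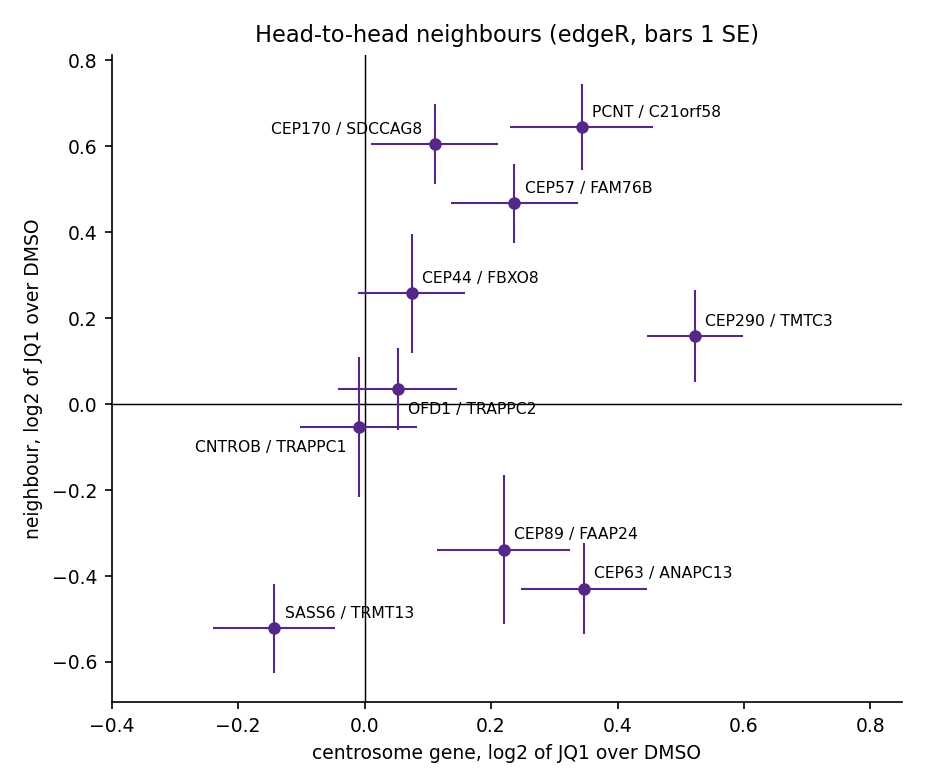
Log2 change of each centrosome protein gene (horizontal axis) against that of its head-to-head neighbour (vertical axis) for 10 of the 11 pairs with a tested neighbour; points are edgeR estimates and bars 1 SE. Most pairs lie in the upper right or lower left, while CEP63 and ANAPC13 (0.35 and -0.43) and CEP89 and FAAP24 (0.22 and -0.34) have opposite signs.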

How the data were processed

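Total RNA libraries were made with a stranded kit, per the labels' protocols, and GRCh38 was the genome build, as the submitters' processing notes have it (per the labels); the aligner is not given in the sources used here. The deposited files hold raw counts of reads per gene, unstranded and for each strand; the column of the reverse strand, with 20.9 to 22.6 times the counts of the other, was used. Its layout is that of counts that skip multi-mapped and multi-gene reads. Lines that name no gene stayed out of all totals (unmapped 1.48% to 1.99% of reads, no gene 18.8% to 26.1%). Symbols and positions came from GENCODE 29; positions are given only where the identifier's version matched (39 of 43 genes). Replicate libraries of a group differed by more than sampling noise (chi-square per degree of freedom 15.4 to 31.9).

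Genes passing edgeR's filterByExpr (minimum count 10, minimum total 15) were scaled by TMM factors (0.965 to 1.06) and tested with edgeR 4.0.16 (glmQLFit, robust, R 4.3.3), JQ1 against DMSO, 3 libraries each, with Benjamini-Hochberg adjustment over all tested genes at 0.05; SE is the log2 change over the root of F. The procedure was tested on simulated data. The labels do not say what a replicate number marks, so the fit has no block; same-numbered libraries deviated together (correlations 0.33, 0.43 and 0.37, each over 0.1), so values with the number as a block are given where they change a call. Alternatives were DESeq2 1.42.0, limma-voom 3.58.1, other scalings and filters, unstranded counts, a wider symbol rule and each library left out; leaving out both libraries of number 2 was added after seeing the data.

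The genes, the role, pathway and marker lists and the motifs were chosen with earlier results of these data known. Values in every library are given for up to 6 called genes per direction with the smallest p, for 10 well-known members whatever their values, and for the most and least abundant; from each list up to 4 genes with the smallest p are named, and others named were chosen after their values were seen. At 1 CPM a library holds about 16 to 25 reads, and intervals and floors cover counting error only. The values of 1 tested member and of 1 listed gene are counted in all totals but not reported here.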

Additional observations from a re-analysis of the deposited data

How the results depend on the processing

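With the replicate number as a block, which pairs the libraries, 25 centrosome genes were called higher instead of 13, and 7 lower; all 18 earlier calls were among them. The count of lower genes ran from 2 to 6 when each library was left out in turn (2 without JQ1 replicate 1, 6 without JQ1 replicate 2) and that of higher genes from 12 to 13. Without both libraries of number 2 it was 3 lower and 12 higher, where 2206 and 1423 of all 13986 tested genes were called. Over all tested genes, lower calls ran from 2436 to 2627 and higher calls from 1707 to 1901 with each library left out. Those fits tested 14055 to 14444 genes. The main fit had 2883 and 2227 of 13975. Counts of higher and lower centrosome genes were 14 and 5 with DESeq2, 13 and 5 with limma-voom, relative log expression factors or unstranded counts, 11 and 7 with library size only, 15 and 7 with no filter, and 14 and 5 at 1 CPM in 3 libraries. Over all tested genes they were 2268 and 2741 with DESeq2, 2239 and 2877 with limma-voom and 2299 and 2799 with relative log expression factors. With library size only they were 1697 and 3245, and each of these fits tested 13975 genes. With no filter they were 2294 and 3358 of 26447 genes. They were 2108 and 2932 of 16209 with unstranded counts, and 2224 and 2686 of 12187 at 1 CPM in 3 libraries. The members' median log2 change stayed between 0.15 (library size only) and 0.23, and no member reversed a called direction. Over single genes and alternatives, 23 values lost a call, in 6 genes (AKAP9, CDK5RAP2, CEP120, CEP135, CEP63 and PCNT), and 28 gained one, in 14 genes; the causes were not tested. With the wider symbol rule, 15 genes were called higher and 5 lower in the main fit, with the same 2227 and 2883 of 13975 as background. The fewest reads of a tested member in any library were 134 (CEP162, JQ1 replicate 3), so depth left only CEP126 untested.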

Other observations

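Genes with a CEP number and a suffix were left out by the rule. CEP57L1, a paralog of CEP57, had 62.2 CPM in DMSO and 76.9 in JQ1 on average (log2 change 0.30, SE 0.09, edgeR adjusted p = 0.029), and CEP85L, a paralog of CEP85, 149 and 186 CPM (0.33, SE 0.09, adjusted p = 0.021). Both were called higher. CEP295NL, at about 1 CPM, was not called (0.25, SE 0.29), and CEP170B had too few reads to be tested.

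Reads on the strand opposite to the gene were 14.1% of the reads of CEP295 in DMSO and 13.4% in JQ1, and 9.75% and 12.8% of those of CEP68. In CEP250 they were 6.61% in DMSO and 2.92% in JQ1. TAF1D overlaps exons of CEP295 and RAB1A exons of CEP68 on the opposite strand, and an antisense gene overlaps CEP250.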
